A study of Mus musculus with 5 samples.

Results

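The genes described here are 6 that serve bile acid handling in the gut: Slc10a2, Fabp6, Slc51a, Slc51b, Fgf15 and Cyp27a1. Members were all probe sets annotated to 1 of these symbols alone, which gave 5 probe sets for 5 genes among the 22626 probe sets tested. Slc51b had no such probe set and was not analysed here. The samples were colons of mouse embryos at E18.5, profiled on 5 arrays. The HNF4 null group was HNF4LoxP/LoxP FoxA3Cre (null_59, null_60 and null_426), and the control group was HNF4LoxP/+ FoxA3Cre (CONTROL_406 and CONTROL_421). Both groups thus carried the Cre transgene and at least 1 floxed allele, and the controls were heterozygous for it. The transgene takes its name from Foxa3, which is active in gut endoderm, and the labels say neither which cells recombined nor which part of the gene was floxed. They also do not say whether the embryos shared a litter or whether colons were pooled. The p-values thus rest on the spread between these 5 arrays, moderated by a variance shared over all probe sets.

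Bile acids are made from cholesterol in the liver and are mostly recovered in the terminal ileum. There Slc10a2, the sodium-dependent transporter of the apical membrane, takes them into the enterocyte, Fabp6 binds them in the cytosol, and the Slc51a and Slc51b proteins together export them across the basolateral membrane. Inside the cell they activate the nuclear receptor encoded by Nr1h4 (FXR), which induces Fgf15, a hormone that acts through Fgfr4 and its co-receptor Klb on the liver to repress Cyp7a1. Cyp27a1 encodes a mitochondrial sterol hydroxylase that opens the alternative route of bile acid synthesis. HNF4 alpha, encoded by Hnf4a, is a nuclear receptor of the intestinal epithelium and the liver.

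The promoters of 3 members are shown because each held a match to 1 or more of 3 motifs that relate to this pathway. They are the 250 bases before the gene start in RefSeq (GRCm38.p6), written 5′ to 3′ on the gene's own strand, which is the minus strand for all 3. They lie at chr8:5105288-5105537, chr11:43601563-43601812 and chr16:32487880-32488129, and capitals mark the matches.
Slc10a2: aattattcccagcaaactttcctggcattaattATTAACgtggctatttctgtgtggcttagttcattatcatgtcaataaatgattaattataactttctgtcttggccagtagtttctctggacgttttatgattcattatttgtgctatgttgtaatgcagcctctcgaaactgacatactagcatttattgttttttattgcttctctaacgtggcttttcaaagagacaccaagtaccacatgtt
Fabp6: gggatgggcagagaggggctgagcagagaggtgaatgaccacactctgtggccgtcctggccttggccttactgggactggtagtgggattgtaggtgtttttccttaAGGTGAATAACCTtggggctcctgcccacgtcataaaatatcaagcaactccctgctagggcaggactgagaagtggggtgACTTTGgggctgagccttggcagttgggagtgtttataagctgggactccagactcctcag
Slc51a: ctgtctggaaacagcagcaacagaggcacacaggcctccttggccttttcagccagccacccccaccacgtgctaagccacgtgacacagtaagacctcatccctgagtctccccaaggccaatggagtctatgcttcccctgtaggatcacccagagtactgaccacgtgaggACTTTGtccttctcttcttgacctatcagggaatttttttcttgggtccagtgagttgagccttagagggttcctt

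The motifs were searched on both strands. CAAAGT, a core of the HNF4 motif, was found in the Fabp6 promoter 61 to 56 bases before the start and in that of Slc51a 76 to 71 bases before it. It occurred in 12.55% of 32851 mouse promoter windows of the same length. GTTAAT, a core of the HNF1 motif, was found in the Slc10a2 promoter, 217 to 212 bases before the start, and in 6.43% of all windows. The inverted repeat AGGTNANTNACCT, a relaxed form of the element bound by FXR, was found in the Fabp6 promoter 142 to 130 bases before the start and in 6 of the 32851 windows. The Slc51b promoter was also searched and held none of the 3 motifs. The Cyp27a1 window held none either, but the start it precedes lies inside the annotated gene, so it is not the sequence before the gene's outer end. No promoter sequence was available for Fgf15, so its promoter was not searched. The motifs did not overlap each other in the windows shown. A match describes letters in the window and is not evidence of binding.

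In the fetal colon, 0 of the 5 measured members passed limma's threshold between HNF4 null and control (adjusted p under 0.05 over all probe sets), and 1 of the 5, Slc10a2, was lower at an unadjusted p under 0.05. Over all probe sets, 0.124% passed the threshold and 4.33% were lower at that unadjusted level. The median log2 difference of the 5 members was -0.02, beside 0.02 over all probe sets. The intensity of Slc10a2 was lower in each null array than in both controls, while in the other 4 genes the groups overlapped.

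**Figure D1:**
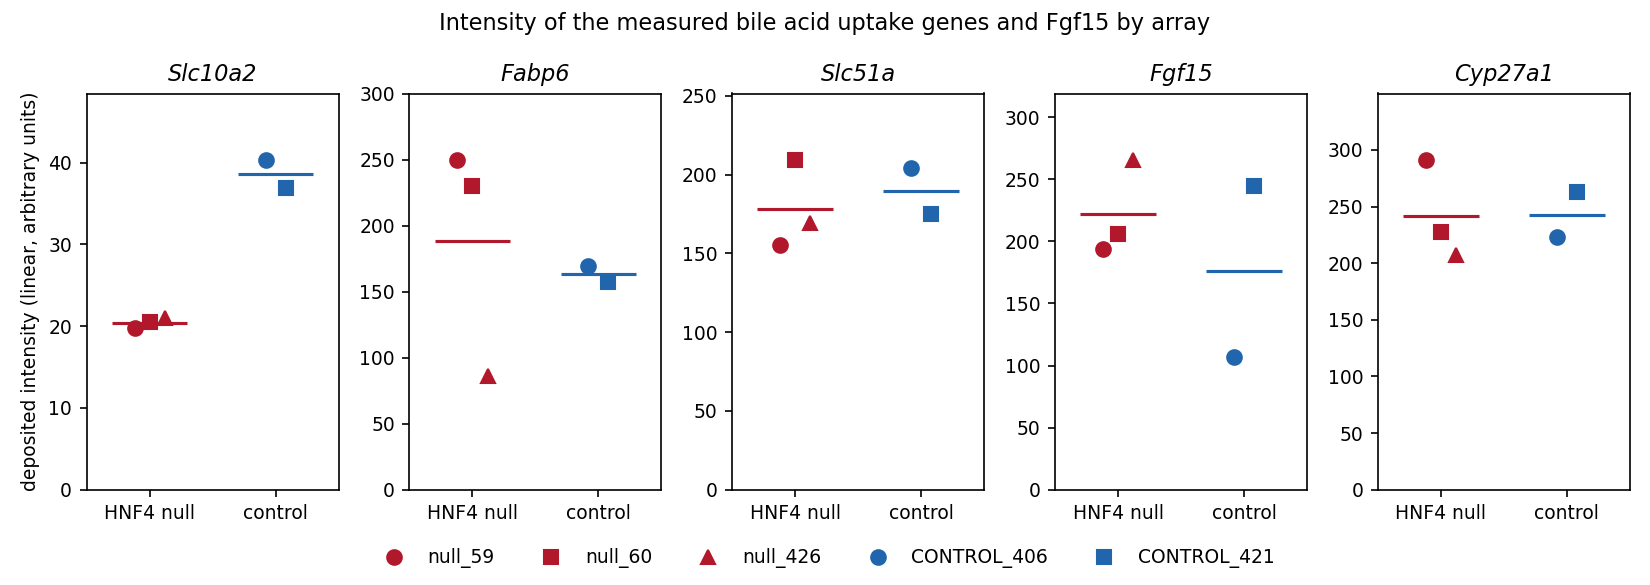
Deposited intensity (linear scale, arbitrary units, each axis from 0) of the 5 measured genes, with HNF4 null arrays in red at left and control arrays in blue at right. Each point is 1 array and each line a group mean; the 2 groups separate for Slc10a2, Fabp6 has 1 low null array (null_426, 85.97) and Fgf15 has 1 low control array (CONTROL_406, 107).

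Slc10a2 (probe set 1450245_at; gene at chromosome 8, 5083219 to 5105287, GRCm38.p6) read 19.8, 20.5 and 21.0 in null_59, null_60 and null_426, against 40.4 and 36.9 in CONTROL_406 and CONTROL_421. The arrays of each group lay close together, and the highest null array was below the lowest control array. The mean of the null colons was 20.4 ± 0.618 (SD, n = 3), against 38.6 ± 2.48 in the controls (SD, n = 2). On the log2(intensity + 16) scale the difference was -0.68 ± 0.16 (SE), or 1.60-fold lower with a 95% interval from 1.25 to 2.04 (limma unadjusted p = 0.00172, adjusted p = 0.312), so it did not pass the threshold. The log2 values spanned 0.06 within null and 0.04 within control arrays, so the SE of 0.16 comes largely from the variance shared over all probe sets. Separated groups were common in these data: 11.6% of all probe sets had every null array below both controls, and 23.7% had groups that did not overlap in either direction.

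The Slc10a2 signal was dim. It stood at the 4.82 to 5.38 percentile of all probe sets in the null arrays and at the 13.8 to 14.5 percentile in the control arrays. The array medians lay between 123.7 and 135.2. Of 20 genes listed as not expected in gut, such as those of the retina, the lens, sperm and milk, 17 were measured and had mean intensities between 44.2 and 275. The mean of Slc10a2 over the 5 arrays, 27.7, lay below all 17. Those of the other 4 members, 179 to 242, lay inside this range, each above 15 of the 17. No detection call was used here, and whether the transcripts of the 5 members were present in either group cannot be told from these values. The added constant of 16 is large beside them, and the log2 difference was -1.03 with a constant of 1 and -0.33 with one of 64 (adjusted p = 0.221 and 0.571).

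Markers of absorptive cells also read lower in the null arrays. All 13 measured enterocyte markers of 17 listed had a log2 difference below 0, with a median of -0.86, and in 10 of the 13 each null array read less than either control. Among them 10 were lower and 0 higher at a limma unadjusted p under 0.05, beside 4.28% lower over all genes. The threshold was passed by 2, Cdhr5 and Mep1b, both of the microvillus surface. The summed intensity of the 13 ranged from 1594 to 2280 in null and from 3566 to 4014 in control arrays. Lct, the lactase gene, lay near the bottom of all arrays (7.78 to 17.7 in null and 12.7 to 19.7 in control colons). Of 12 measured epithelial markers, 5 were below 0 and 7 above, and their sums ranged from 15037 to 19548 in null and from 19585 to 19921 in control arrays, with null_426 the lowest. At a limma unadjusted p under 0.05, 2 of these 12 were lower, Epcam (-0.66) and Spint1 (-0.68), and 0 were higher. Markers of other cell types read higher more often than lower in 2 lists. In smooth muscle 8 of 9 differences were above 0, with a median of 0.19 beside 0.02 over all genes. At a limma unadjusted p under 0.05, 2 of the 9 were higher, beside 325 of 12393 over all genes. The sums of the 9 ranged from 18031 to 19788 in null and from 14192 to 18585 in control arrays. In endothelium 7 of 7 were above 0, with a median of 0.23 and sums from 1288 to 1499 in null and from 1188 to 1236 in control arrays. Of 7 fibroblast markers, 3 were above 0 and 1 was lower at an unadjusted p under 0.05. In these 3 lists 0 genes passed limma's threshold, beside 0.137% over all genes. The part of these differences in the Slc10a2 values was not tested, and in whole tissue fewer cells of a type and less RNA per cell cannot be told apart.

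**Figure D2:**
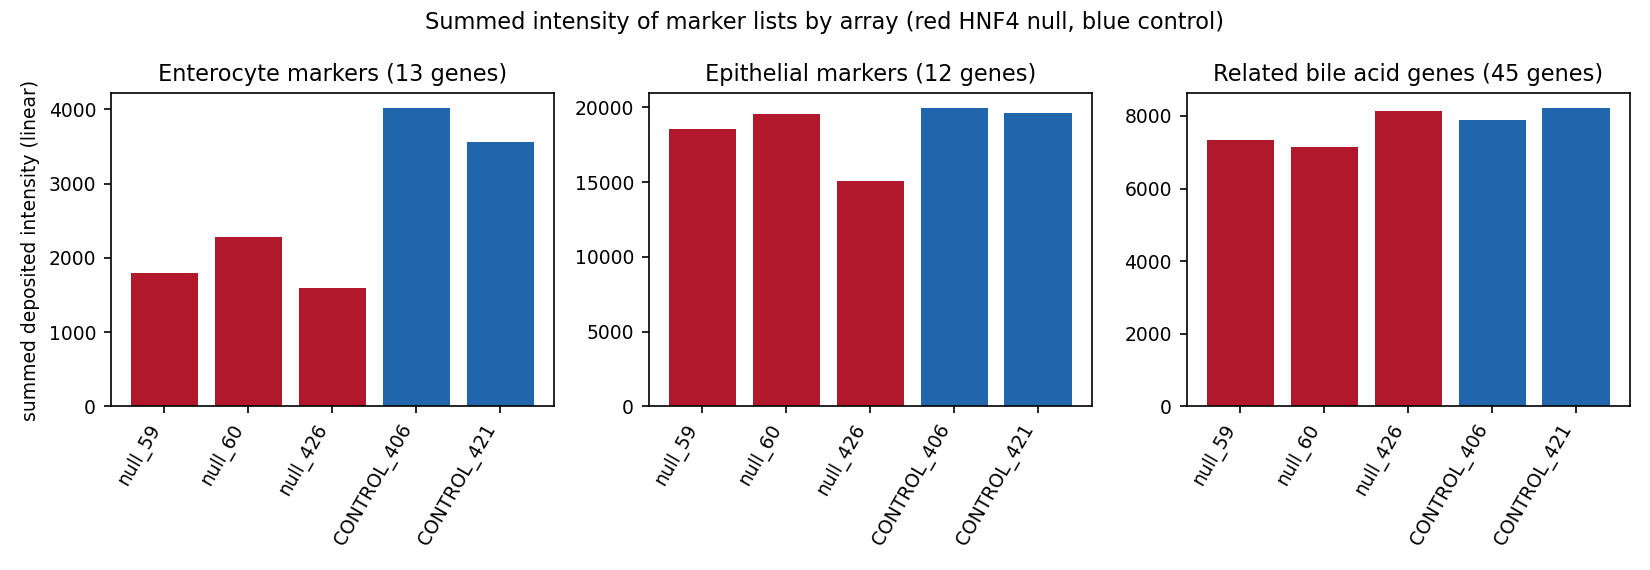
Summed deposited intensity (linear scale, from 0) of enterocyte markers, epithelial markers and the related bile acid genes in each array, with HNF4 null in red and control in blue. The enterocyte sums of the 3 null arrays (1594 to 2280) lie below both control arrays (3566 and 4014), the epithelial sum is lowest in null_426, and the sums of the related bile acid genes overlap.

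Fabp6 (probe set 1450682_at; chromosome 11, 43596040 to 43601562), the cytosolic bile acid binding protein, read 250.3, 230.1 and 86.0 in null_59, null_60 and null_426, against 169.2 and 157.4 in CONTROL_406 and CONTROL_421. The 2 control arrays lay close together and between the null arrays, of which null_426 was far below the others. The log2 values of the null arrays spanned 1.49 and those of the controls 0.03. The difference was 0.02 ± 0.38 (SE, 95% interval -0.83 to 0.88, limma adjusted p = 0.993). Without null_426 it was 0.50 (unadjusted p = 0.0209, adjusted p = 0.922), and without null_59 it was -0.25, so the sign depended on single null arrays.

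Slc51a (probe set 1451481_s_at; chromosome 16, 32475578 to 32487879) encodes the larger subunit of the basolateral exporter. Its suffix, by the array maker's naming, marks probes that can match more than 1 transcript. It read 155.4, 209.6 and 169.3 in the null arrays and 203.9 and 174.9 in the control arrays, and the groups overlapped. The mean of the null colons was 178 ± 28.1 (SD, n = 3), against 189 ± 20.5 in the controls (SD, n = 2), a log2 difference of -0.11 ± 0.18 (SE, 95% interval -0.51 to 0.29, limma adjusted p = 0.902). A 2-fold change of the signal in either direction lies outside this interval.

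Fgf15 (probe set 1418376_at; chromosome 7, 144896532 to 144900953), the hormone, read 193.7, 205.6 and 265.9 in null_59, null_60 and null_426, against 107.0 and 244.5 in CONTROL_406 and CONTROL_421. The control arrays lay on either side of null_59 and null_60, and CONTROL_406 was the lowest of the 5. The mean of the null colons was 222 ± 38.7 (SD, n = 3), against 176 ± 97.3 in the controls (SD, n = 2). The log2 difference was 0.39 ± 0.30 (SE, 95% interval -0.28 to 1.07, limma adjusted p = 0.801), an interval that includes a 2-fold rise. The value rested on the control arrays: it was -0.17 without CONTROL_406 and 0.94 without CONTROL_421 (unadjusted p = 0.00385, adjusted p = 0.625). Control probe sets for the 3′ and 5′ ends of transcripts, as a 3′/5′ ratio, set CONTROL_421 apart in opposite directions: for Gapdh it was the highest (1.47, against 0.767 to 0.895 in the other 4 arrays), and for the transferrin receptor the lowest (1.51, against 2.69 to 3.48). The part of RNA quality in the result was not tested.

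Cyp27a1 (probe set 1417590_at; chromosome 1, 74713148 to 74737897) read 291.5, 227.6 and 207.2 in the null arrays and 222.9 and 263.0 in the control arrays, so both controls lay inside the null range. The mean of the null colons was 242 ± 44.0 (SD, n = 3), against 243 ± 28.3 in the controls (SD, n = 2). The log2 difference was -0.02 ± 0.20 (SE, 95% interval -0.46 to 0.43, limma adjusted p = 0.989), which leaves out a 2-fold change of the signal either way. Cyp27a1 is also expressed in macrophages. Of 14 measured macrophage and leukocyte markers, 10 had a difference below 0 and 0 passed limma's threshold, with 2 lower and 0 higher at an unadjusted p under 0.05. Over all genes 0.137% passed the threshold, and 4.28% were lower and 325 of 12393 higher at that unadjusted level. The sums of the 14 markers ranged from 2065 to 2353 in null and from 2430 to 2527 in control arrays. Their part in the Cyp27a1 values was not tested.

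No array was low in all members. The array null_426 had the lowest Fabp6 and the highest Fgf15 of the 5, null_59 the highest Cyp27a1 and the lowest Slc51a, and CONTROL_406 the lowest Fgf15. The 95% intervals of 3 of the 5 members, Fabp6, Slc51a and Cyp27a1, left out a 2-fold change on the log2(intensity + 16) scale. For Slc51a and Cyp27a1 this held under all 13 alternatives, and for Fabp6 under 6 of the 13, since under the others its interval reached as far as -1.20 (without null_60) and 1.17 (without CONTROL_406). The intervals of Slc10a2 (-1.03 to -0.33) and Fgf15 did not leave it out. All of these intervals are of the signal, and without detection calls the share of background in it is unknown. They thus do not bound a change of the transcript.

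**Figure D3:**
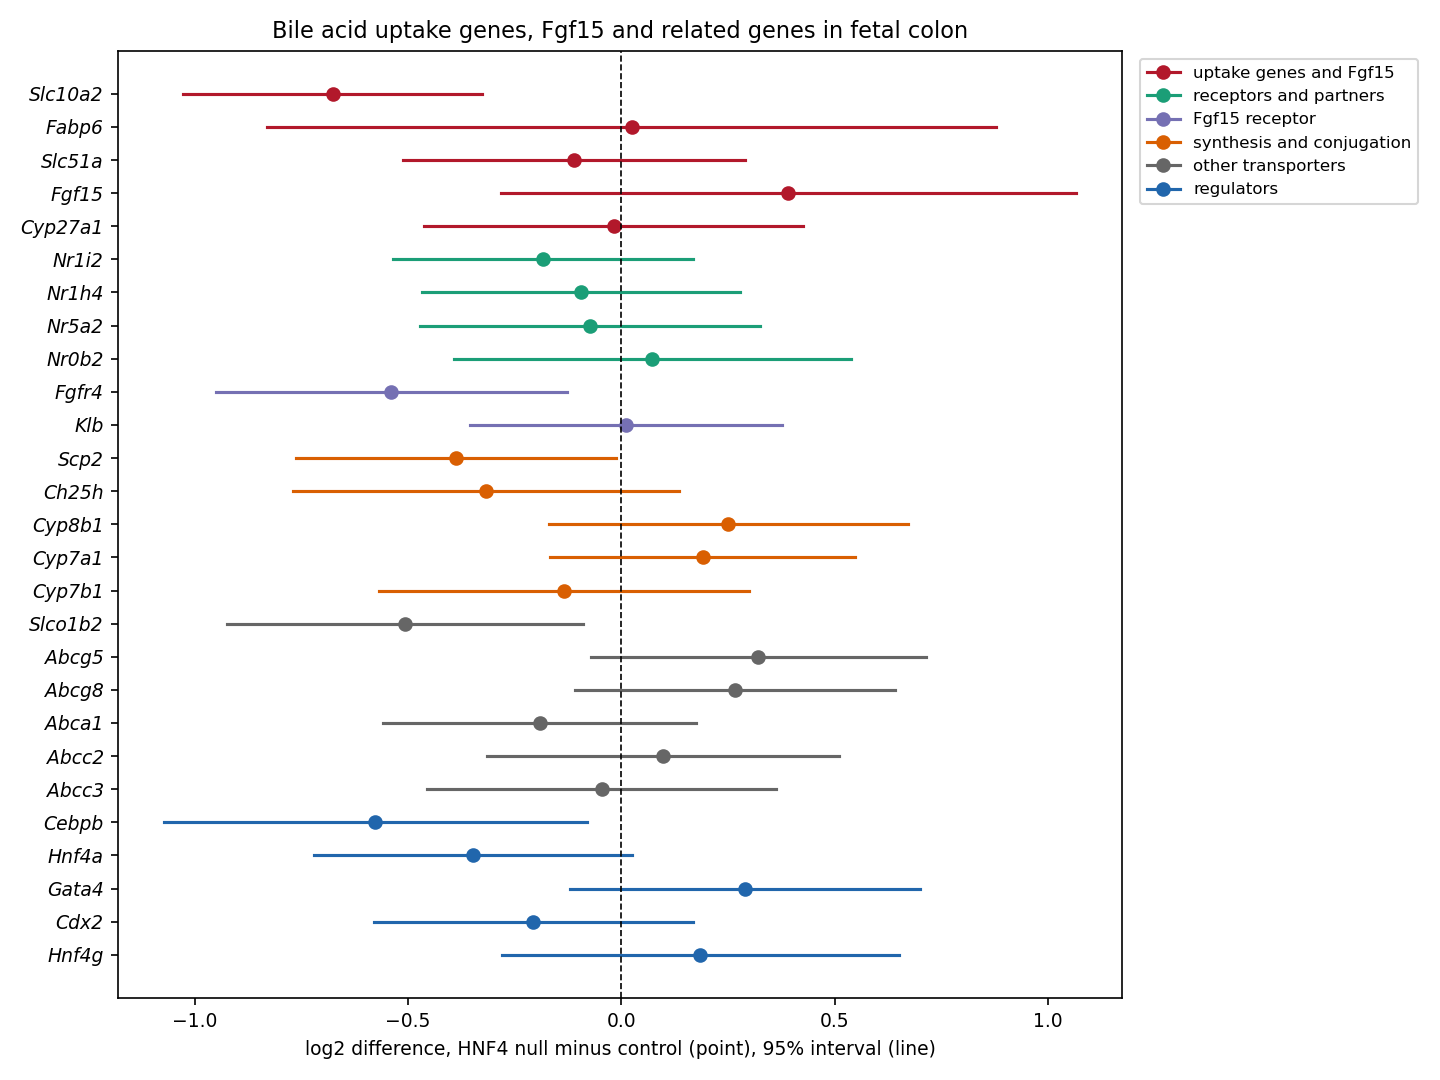
Log2 differences (HNF4 null minus control, horizontal axis) with 95% intervals for the 5 members in red and for named related genes below them, each by its brightest probe set. The interval of Slc10a2 (-1.03 to -0.33) lies below 0, as do those of Fgfr4, Scp2, Slco1b2 and Cebpb, and none of the genes shown passed the threshold after adjustment over all probe sets.

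The wider list of 53 genes held the bile acid pathway and regulators of intestinal bile acid transport, Hnf4a itself among them. Of these genes 45 were measured, and by each gene's brightest probe set 0 of 45 passed limma's threshold. Without adjustment (p under 0.05), 4 were lower and 0 higher, a share of 8.89% beside 6.9% over all genes, and 22 of the 45 differences were below 0 with a median of 0.01. Over all genes by their brightest probe sets, 0.137% passed the threshold. The summed intensity of the 45 genes, of which Hnf4a was the brightest (mean 811), ranged from 7159 to 8132 in null and from 7882 to 8209 in control arrays. By all of their 82 probe sets, 0 passed, 7 were lower and 1 was higher at an unadjusted p under 0.05, a share of 9.76% beside 7.15% over all probe sets. Some genes named below were dim. The brightest probe sets of Ch25h, Abcc2, Cyp7b1 and Klb had means over the 5 arrays of 23.1, 30.8, 36.5 and 39.4. These lay below all 17 measured genes not expected in gut (44.2 to 275).

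Of the receptors that sense bile acids and their partners, 8 of 10 were measured and 0 differed at an unadjusted p under 0.05 by limma. Nr1h4, which encodes FXR, read 173.6, 147.5 and 176.7 in the null arrays and 183.5 and 166.4 in the control arrays (log2 difference -0.09 ± 0.17, SE). The groups overlapped. Nr0b2, the repressor SHP that FXR induces, differed by 0.07 and Nr5a2, a nuclear receptor that SHP represses, by -0.07, while Nr1i2, a xenobiotic receptor that also senses bile acids, differed by -0.18. The dimmer probe sets of Nr5a2 gave -0.17, 0.13 and 0.10, and that of Nr1i2 gave 0.04, so signs differed within both genes.

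Fgfr4, the receptor of Fgf15, read 317.2, 292.2 and 304.5 in null_59, null_60 and null_426, against 399.3 and 529.4 in CONTROL_406 and CONTROL_421. The null arrays lay together below both control arrays. The log2 difference by this brightest of 5 probe sets was -0.54 ± 0.18 (SE, limma unadjusted p = 0.0157, adjusted p = 0.607), while the other 4 gave -0.14, 0.00, -0.02 and 0.20, so the probe sets disagreed. Klb, the co-receptor, differed by 0.01 by its brighter probe set and by -0.41 by the other.

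All 17 genes of synthesis and conjugation on the list were measured, and 1 was lower at an unadjusted p under 0.05. Scp2, a sterol carrier and peroxisomal thiolase of side-chain shortening, read 466.9, 479.1 and 377.8 in the null arrays and 593.4 and 595.7 in the control arrays. Its 4 probe sets gave differences of -0.39 (brightest, limma adjusted p = 0.695), -0.76 (adjusted p = 0.392), -0.38 and -0.24, all below 0. Ch25h, cholesterol 25-hydroxylase, differed by -0.32. The liver enzymes Cyp7a1, the rate-limiting step of the classical route, and Cyp8b1, the 12-alpha hydroxylase, differed by 0.19 and 0.25, and Cyp7b1, which acts after Cyp27a1, by -0.13.

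Of the other bile acid and sterol transporters, 12 of 16 were measured and 1 was lower at an unadjusted p under 0.05. This was Slco1b2, a hepatic organic anion importer, at -0.51 by its brightest probe set (limma adjusted p = 0.642), while its other 4 probe sets gave 0.23, 0.08, 0.05 and -0.02. The sterol exporter genes Abcg5 and Abcg8, which work as a pair, differed by 0.32 and 0.27, and the cholesterol exporter gene Abca1 by -0.19. Its 2 dimmer probe sets gave -0.21 and 0.48 (limma adjusted p = 0.814 and 0.642). The conjugate exporter genes Abcc2 and Abcc3 differed by 0.10 and -0.05.

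Among 6 measured genes of 7 listed as regulators of intestinal bile acid transport, 1 was lower at an unadjusted p under 0.05 by its brightest probe set, Cebpb, a leucine zipper factor gene, at -0.58 (limma adjusted p = 0.652), with -0.43 by its dimmer one. Cdx2, the homeobox gene of intestinal identity, differed by -0.21 by its brighter probe set and by -0.89 by the dimmer one (adjusted p = 0.248). Gata4, a factor gene that represses Slc10a2 in the mouse small intestine, read 102.1, 112.2 and 148.2 in the null arrays and 92.7 and 89.5 in the control arrays. All null arrays lay above the controls, by 0.29 ± 0.18 on the log2 scale (SE, limma adjusted p = 0.778). By its dimmer probe set the groups overlapped, with a difference of 0.24. Hnf4a itself gave -0.35, -0.55, 0.14 and 0.19 by its 4 probe sets, of which none passed the threshold. By those at -0.35 and -0.55 each null array read below both controls, and by those at 0.14 and 0.19 the groups overlapped. The brightest, at -0.35, read 649.8, 745.7 and 722.5 in the null arrays and 945.3 and 991.4 in the control arrays. Hnf4g, the paralog of Hnf4a, gave 0.19 by its brighter probe set and -0.29 by the other.

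The labelled tissue was checked against a list of 12 colon markers, of which 10 were measured. Hoxb13, a homeobox gene of the hindgut, read 179 to 361 in null and 465 to 516 in control arrays, and Cdx1 read 201 to 370 in null and 452 to 635 in control arrays. Hoxa13, Hoxd13 and Hoxd11 of the same list were dimmer, with means over the 5 arrays of 60.2, 92.3 and 93.6. These lay inside the range of the genes not expected in gut (44.2 to 275), and Hoxd12, at 36.0, lay below that range. Aqp8 and Atp12a fell in null colons (limma adjusted p = 0.00654 and 0.0271), and 9 of the 10 had a difference below 0. In a list of 14 genes typical of the small intestine, 12 were measured and 7 differed by less than 0, with a median of -0.05 and sums from 1643 to 2051 in null and from 1768 to 1991 in control arrays. Of 9 measured liver markers, 4 were below 0 and 5 above, with sums from 1109 to 1382 in null and from 1149 to 1236 in control arrays, and 0 passed limma's threshold or an unadjusted p under 0.05.

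The 3 genes whose pattern over the 5 arrays was most like that of Slc10a2 were sought among the 6197 other genes at or above the median of gene intensities. Likeness was the root mean square distance between log2 values centred on each gene's own mean. They were Cd4, a T cell co-receptor gene, at 0.062, Rida, an imine deaminase gene, at 0.065, and Ahcyl2 at 0.075. Cd4 read 188.2, 205.6 and 194.4 in null and 305.4 and 330.8 in control arrays. The choice by likeness to Slc10a2, a dim probe set whose groups separate, fixes the direction of these genes.

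**Figure D4:**
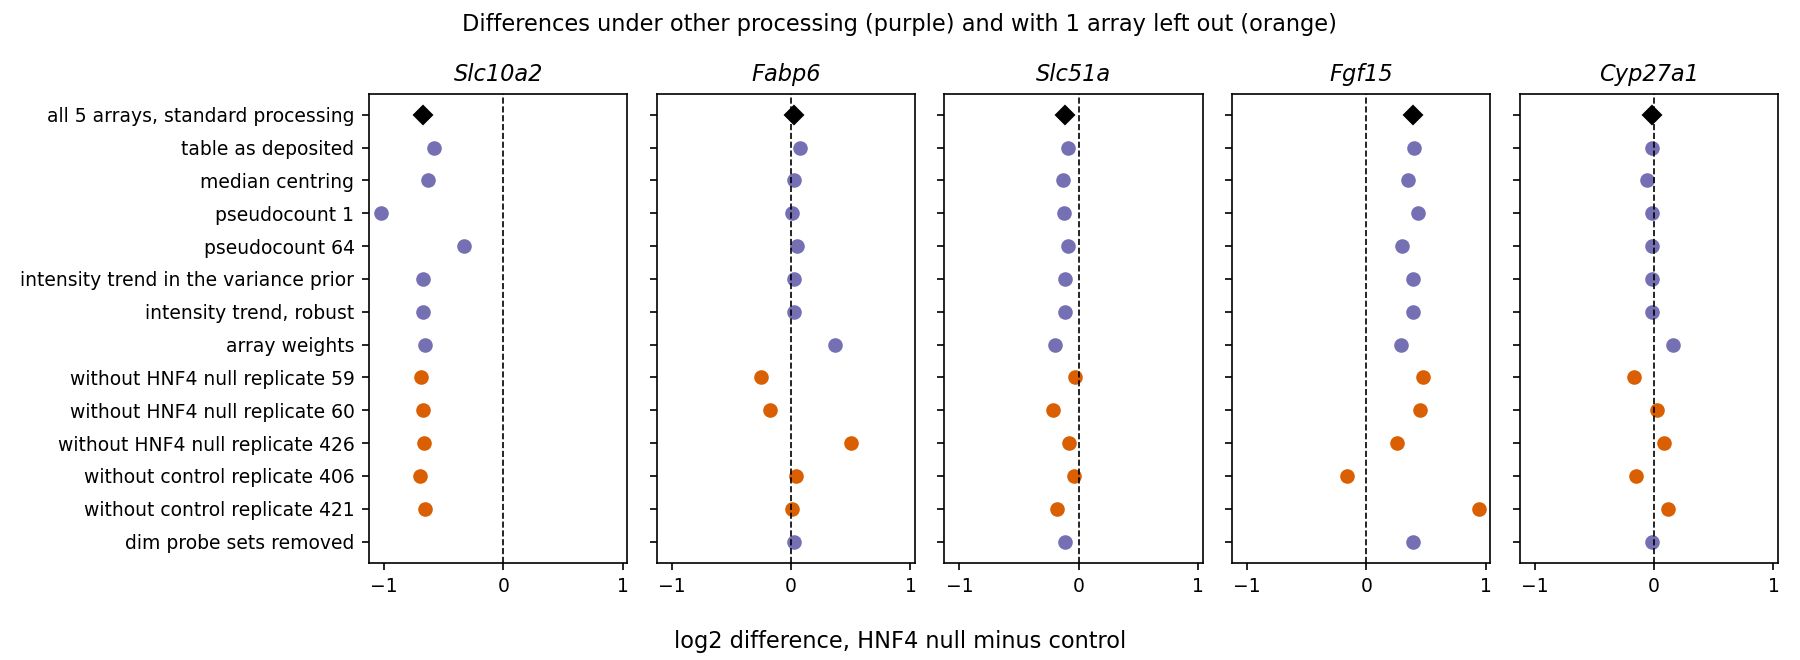
Log2 differences of the 5 members (HNF4 null minus control, horizontal axis) for all arrays (black), other processing (purple) and with 1 array left out (orange). Slc10a2 stays below 0 at each setting that gave it a value (-1.03 to -0.33), while Fabp6, Fgf15 and Cyp27a1 lie on both sides of 0.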

How the data were processed

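The authors' deposited values are linear intensities, 1 for each probe set on each array. Per the labels' protocols, RNA came from Qiagen RNeasy mini columns and was biotin-labelled and run by the Affymetrix procedure. Summarisation, background step and scaling are not given in the sources used here, and some values lay below 0. Of 22690 probe sets, 64 control probe sets were left out. A platform annotation of 2016 gave 20380 probe sets 1 symbol, 691 several and 1555 none, and 20351 matched RefSeq (GRCm38.p6) by gene ID with 0 symbols changed.

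Values below 0 were set to 0, taken as log2(intensity + 16) and quantile normalised, since array medians spread over 0.11. HNF4 null was compared with control by limma 3.58.1 in R 4.3.3 (lmFit, eBayes, two-sided, no covariate), with Benjamini-Hochberg adjustment over 22626 probe sets. The eBayes step draws the variance of each probe set toward a value common to all, with 9.33 total degrees of freedom. A fold change on this scale understates changes of dim genes. Intensities are printed as deposited. Precision is limited by the number of arrays. On simulated data with added shifts, it was required only that mean estimates match the shifts, which does not test error rates in these arrays.

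The members, lists, motifs and tests were chosen with earlier results of these data known. All member probe sets were named. In each related list the 4 genes with the smallest p by their brightest probe set were named, with Nr1h4, Nr0b2, Fgfr4, Klb, Cyp7a1, Cyp7b1, Abcc2, Abcc3, Hnf4a, Hnf4g and Gata4. Other probe sets of these genes, and marker genes given with values, were chosen after their values were seen. Alternative settings were other normalisations, a pseudocount of 1 or 64, a filter on dim probe sets (mean under the median of means), other variance priors, array weights and each array left out.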

Additional observations from a re-analysis of the deposited data

How the results depend on the processing

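The count of member probe sets past limma's threshold was 0 under all 13 alternatives, as was that of the related bile acid probe sets. Slc10a2 kept its direction under the 12 alternatives that gave it a value (adjusted p from 0.182 to 0.796), and the removal of dim probe sets took it out of the fit. Slc51a stayed below 0 under all 13 alternatives (-0.22 to -0.04). With 1 array left out, Fabp6 ranged from -0.25 (without null_59) to 0.50 (without null_426), and was -0.17 without null_60 and 0.37 with array weights. Fgf15 ranged from -0.17 (without CONTROL_406) to 0.94 (without CONTROL_421). Cyp27a1 ranged from -0.16 (without null_59) to 0.12 (without CONTROL_421), and was 0.16 with array weights. The count of all probe sets past the threshold, 28, was 14 with a pseudocount of 1, 45 with array weights, and from 8 (without null_60) to 104 (without CONTROL_406) with 1 array left out, with 18 without CONTROL_421. The causes were not tested. Where only 1 control array remained, its spread was taken to equal that of the null arrays. No paired analysis was possible because the groups share no replicate number. The arrays carry no detection calls here, so signal over background is unknown.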
